A study of Mus musculus with 25 samples.

Results

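The keratin genes studied here were the 53 autosomal protein-coding genes of the mouse whose symbol is Krt followed directly by a number, out of 20665 autosomal protein-coding genes of RefSeq (assembly GRCm38.p6, to which mm10 corresponds). Of these, 27 lie in the type I cluster on chromosome 11 (99232761 to 100269951, from Krt222 to Krt42) and 26 in the type II cluster on chromosome 15 (101348315 to 102032026, from Krt80 to Krt18). The members were chosen by name and place and not by their peaks, though earlier results of these data were known. Krt18 makes a type I protein but lies at the end of the type II cluster beside its partner Krt8. Genes for keratin-associated proteins (Krtap) are not members, nor is Krt74, which the table lists as a transcribed pseudogene.

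H3K27me3 was profiled by CUT&RUN, where an antibody-guided nuclease releases the marked chromatin, in 6 libraries of wild-type neural progenitor cells (NPC) grown from embryonic stem cells. These were 2 libraries titled mock and described as untreated, 2 given UNC1999 (2 uM) together with A395 (4 uM), both PRC2 inhibitors, and 2 after their washout. Lines A and B of mouse embryonic fibroblasts (MEF), immortalized with c-myc, gave 12 H3K27me3 ChIP-seq libraries, in pairs of wild type, Ezh2 -/- and Ezh2 restored, through retroviral pMSCV-Ezh2 for line A and through an endogenous rescue for line B, whose loss was labelled reversible. The other 7 libraries of the series, not analysed here, were an input and ChIP for RNA polymerase II, H3K4me3 and H3K36me3 in line A. The files analysed were 3 peak lists, 1 each for line A, line B and NPC. They give positions without heights or sample names, so no list can be tied to a treatment or genotype, and depth and the spread between libraries are unknown. Both MEF lists carry names that combine the titles of wild-type and Ezh2 -/- libraries, without saying how either kind was used. Each value below is therefore 1 value per list with no replicate, no test was possible, and the NPC list differs from the MEF lists both in assay and in cell type. A stretch with no peak in a list is not shown to lack the mark.

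Keratins are the intermediate filament proteins of epithelial cells. A filament needs a type I and a type II keratin, and tissues use set pairs: Krt8 with Krt18 in simple epithelia, Krt5 with Krt14 in the basal layer of the epidermis, Krt1 with Krt10 in the layers above it, and separate sets in the inner root sheath and the shaft of the hair. Fibroblasts and neural progenitors build their filaments from other proteins, vimentin and, in progenitors, nestin as well. H3K27me3 is placed by Polycomb repressive complex 2 (PRC2), whose catalytic subunit is Ezh2, and is best known from CpG-rich promoters of silent developmental genes.

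Keratin promoters held few CpG dinucleotides. The RefSeq promoter sequences (GRCm38.p6, 250 bases before to 50 after each gene's start, and the most upstream entry of a gene with several) matched 36 of the 53 members by gene identifier and 16457 genes in all. The members had a median of 5 CpG per 300 bases, with a range of 2 to 21, against a median of 14 over all matched genes. At least 10 CpG stood in 4 of the 36 keratin promoters (11.1%) and in 58.6% of all promoters. The sequence TATAAA, read on both strands anywhere in the window, was found in 19 of 36 (52.8%) and in 13.5% of all promoters. Both are descriptions of sequence. The 6 promoters below show the range, 5′ to 3′ on the strand of the gene, with each CpG in capitals. Krt76 (chr15:101892871-101893170, minus strand, 4 CpG) and Krt12 (chr11:99422210-99422509, minus strand, 8 CpG) lay wholly inside a peak in each of the 3 lists. Krt7 (chr15:101412153-101412452, plus strand, 21 CpG, the most among the members) lay wholly inside a peak in line A and NPC and met none in line B. Krt8 (chr15:102004293-102004592, minus strand, 6 CpG) met a peak in NPC over 89 bases and none in the MEF lists. Krt18 (chr15:102027966-102028265, plus strand, 17 CpG) and Krt10 (chr11:99389315-99389614, minus strand, 2 CpG) met none in any list.
Krt76: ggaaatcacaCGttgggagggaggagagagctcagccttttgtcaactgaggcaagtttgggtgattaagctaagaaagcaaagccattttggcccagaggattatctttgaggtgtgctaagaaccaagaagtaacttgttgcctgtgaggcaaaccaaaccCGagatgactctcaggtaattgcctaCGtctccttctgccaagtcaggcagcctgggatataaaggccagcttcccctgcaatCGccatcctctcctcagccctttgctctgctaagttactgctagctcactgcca
Krt12: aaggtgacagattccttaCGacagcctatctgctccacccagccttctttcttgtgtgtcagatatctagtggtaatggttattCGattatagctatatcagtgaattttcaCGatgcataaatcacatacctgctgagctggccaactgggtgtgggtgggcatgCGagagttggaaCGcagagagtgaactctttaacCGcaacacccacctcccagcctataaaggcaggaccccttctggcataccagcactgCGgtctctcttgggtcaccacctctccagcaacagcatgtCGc
Krt7: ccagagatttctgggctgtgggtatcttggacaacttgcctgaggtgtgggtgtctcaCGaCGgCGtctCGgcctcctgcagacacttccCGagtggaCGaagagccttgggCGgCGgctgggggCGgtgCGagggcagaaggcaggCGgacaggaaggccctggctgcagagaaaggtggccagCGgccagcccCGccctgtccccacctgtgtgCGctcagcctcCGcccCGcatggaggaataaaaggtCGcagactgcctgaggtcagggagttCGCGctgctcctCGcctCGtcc
Krt8: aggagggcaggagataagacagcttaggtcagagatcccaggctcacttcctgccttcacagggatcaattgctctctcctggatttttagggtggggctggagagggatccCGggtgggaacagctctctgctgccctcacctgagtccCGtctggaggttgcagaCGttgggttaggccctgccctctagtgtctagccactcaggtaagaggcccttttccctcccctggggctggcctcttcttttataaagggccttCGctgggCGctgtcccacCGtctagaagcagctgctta
Krt18: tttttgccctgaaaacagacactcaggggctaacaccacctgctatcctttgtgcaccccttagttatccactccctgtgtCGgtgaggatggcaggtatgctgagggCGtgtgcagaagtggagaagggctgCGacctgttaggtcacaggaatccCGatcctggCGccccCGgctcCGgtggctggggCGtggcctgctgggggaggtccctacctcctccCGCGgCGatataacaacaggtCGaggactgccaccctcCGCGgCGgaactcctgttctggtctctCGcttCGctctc
Krt10: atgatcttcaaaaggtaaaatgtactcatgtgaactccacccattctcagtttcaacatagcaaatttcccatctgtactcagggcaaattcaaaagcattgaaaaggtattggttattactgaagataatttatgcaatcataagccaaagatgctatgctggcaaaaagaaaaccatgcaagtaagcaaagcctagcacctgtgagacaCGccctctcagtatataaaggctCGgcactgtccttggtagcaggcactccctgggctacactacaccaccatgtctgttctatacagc

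A peak touched 25 of the 36 keratin promoters in line A (69.4%), 16 in line B (44.4%), and NPC peaks touched 16 (44.4%), against 13.5%, 14.8% and 10.1% of all promoters. Most of the keratin promoters touched were covered over their full length, 23 in line A, 16 in line B, with 13 in NPC. A peak of every list touched 9 of them (25.0%, against 3.44% of all promoters), and no list had a peak at 9 others (25.0%, against 76.4%). Among the promoters with fewer than 10 CpG, 23 of 32 keratin promoters were touched in line A, 15 in line B, with 14 in NPC. Over the 6812 promoters of the genome with fewer than 10 CpG the shares were 19.1%, 18.9% and 10.6%. Of the 4 keratin promoters with at least 10 CpG, line A peaks touched those of Krt28 and Krt7, NPC peaks the same ones, and the line B list touched that of Krt72. The start in the promoter entry lies inside the record at Krt2, Krt10, Krt12, Krt14, Krt36 and Krt78, by 334 to 42337 bases, and 1 base inside it at Krt77. At these genes the upstream end of the record is therefore another place than the promoter window.

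Every keratin gene had an H3K27me3 peak in line A when its record and 2 kb on each side were taken as its window. The count was 53 of 53 in line A, 36 of 53 in line B (67.9%, 95% exact binomial interval 53.7 to 80.1%) and 45 of 53 in NPC (84.9%, interval 72.4 to 93.3%). By the same rule the shares of all autosomal genes were 32.9%, 33.6% and 26.6%, in the same order. In the type I cluster 27, 16 and 22 of 27 genes had a peak, and in the type II cluster 26, 20 and 23 of 26. The intervals cover counting error only and treat genes as independent, while neighbouring members can share a peak: of the peaks touching a window, several windows were touched by 6 of 47, 0 of 30 and 3 of 31 in the type I cluster and by 7 of 65, 5 of 27 and 5 of 49 in the type II cluster (line A, line B, NPC). The windows of the keratin genes were shorter than those of other genes, with a median of 11.1 kb against 21.5 kb, and the counts and shares here were not matched on window length. Peaks covered a median of 62.9% of the window in line A, 34.9% in line B, with 27.2% in NPC, where the median over all genes was 0% in each list. At least 50% of the window was covered at 34 members in line A, 23 in line B, with 16 in NPC (64.2%, 43.4% and 30.2%), against 10.4%, 10.0% and 4.25% of all genes.

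**Figure D1:**
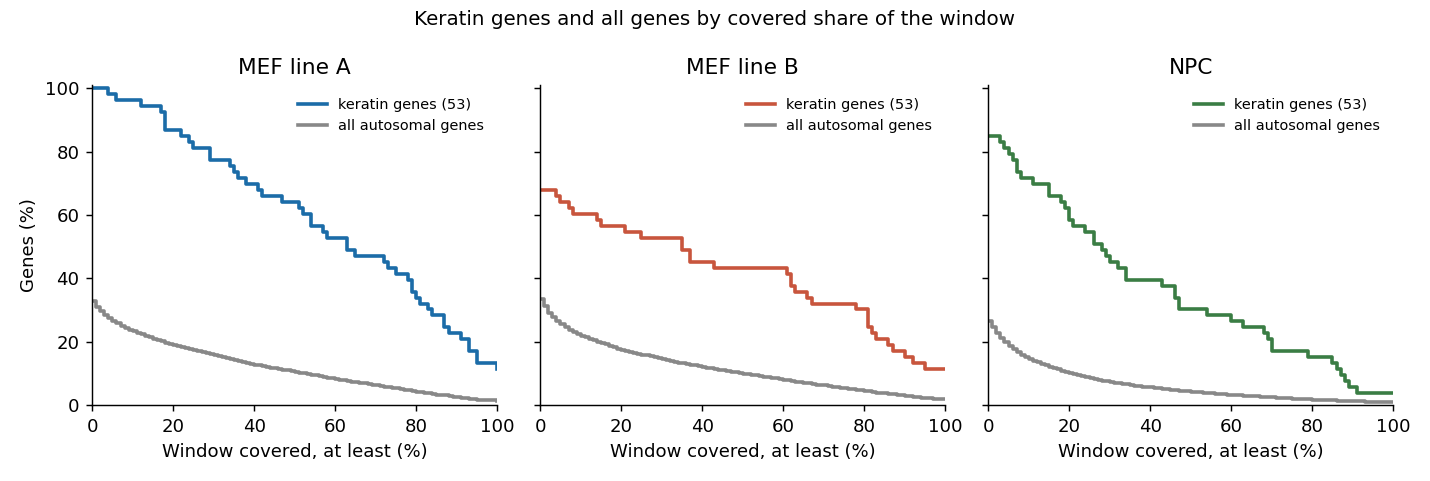
Percentage of genes (vertical axis) whose window, the record with 2 kb on each side, was covered by H3K27me3 peaks over at least the percentage on the horizontal axis, for the 53 keratin genes (coloured line) and all 20665 autosomal protein-coding genes (grey line), in 1 panel per peak list. At 0 the lines give the genes with any peak, 100%, 67.9% and 84.9% of the keratin genes, and the coloured line lies above the grey line throughout each panel.

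No member lacked a peak in all 3 lists, where 53.9% of all genes did. A peak in each of the 3 lists stood at 30 members (56.6%, against 15.5% of all genes). Another 15 had one in line A and NPC and not in line B, 6 in both MEF lines and not in NPC, and 2 in line A alone (Krt16 and Krt81). Of all 20665 genes, 660, 2152 and 773 fell in these classes, in the same order. The first class was thus a larger share of the keratin genes than of all genes, while the shares of the others were close to those of all genes. Thus line A alone of the MEF lists touched 17 members, which only restates the line B count of 36 of 53. Because line A peaks stood at all 53 members, line B alone could touch 0, so the 2 directions cannot be compared here. Among all 20665 genes, line A alone of the MEF lists touched 1433 and line B alone 1573. The covered share of the window was alike between the MEF lists to a moderate degree across the 53 members (Spearman's rho 0.50, against 0.73 over all genes). Line A and NPC gave 0.36 (0.52 over all genes) and line B and NPC 0.17 (0.46). The values over all genes include the 53.9% at 0 in every list, a class with no keratin gene, so they are not like for like. The clusters differed: the same pairs, in the same order, gave 0.69, 0.59 and 0.35 in the type II cluster and 0.40, 0.23 and -0.075 in the type I cluster. These are correlations across genes, which share peaks and are not independent.

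**Figure D2:**
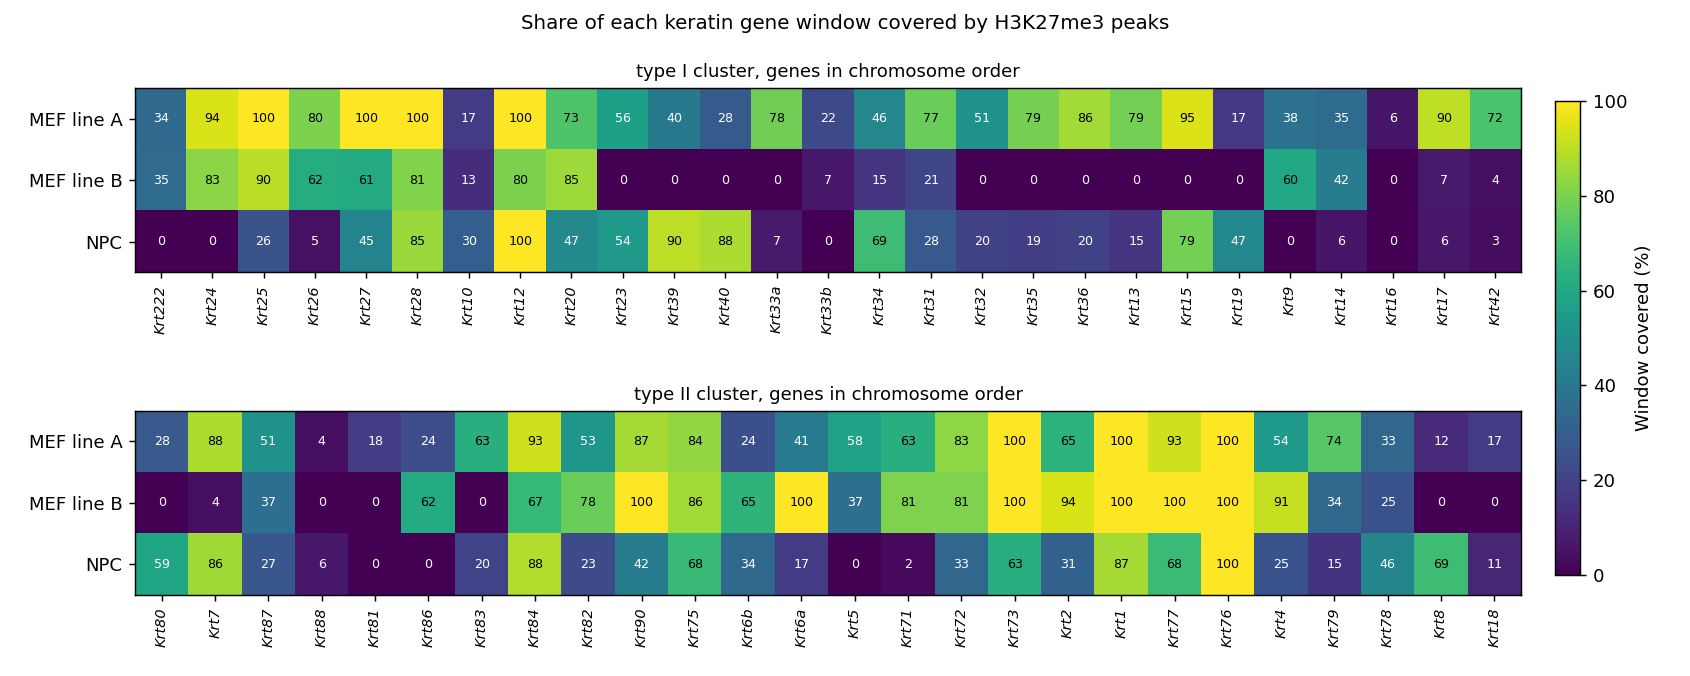
Percentage of the window of each keratin gene (record with 2 kb on each side) covered by H3K27me3 peaks in the 3 lists, rounded to whole percent, with genes in chromosome order and colour from 0 to 100%. In line B, the type I genes from Krt23 to Krt33a and from Krt32 to Krt19 are at 0, while from Krt72 to Krt4 in the type II cluster each member is at 80.6% or more.

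At the scale of the clusters, line B and NPC peaks covered a larger share of the type II cluster than of the type I cluster, and the gap was widest in line B. In line A the order turned with the region counted: over the whole clusters type II was higher, and over the members with 2 kb around them type I was (62.0% against 57.1%). Over the type I cluster (1037 kb), peaks covered 44.3% in line A, 24.7% in line B, with 24.4% in NPC. Over the type II cluster (683.7 kb), they covered 55.8%, 58.2% and 39.6%. The autosomes as a whole were covered over 11.4%, 9.69% and 5.63%, chromosome 11 over 13.7%, 11.7% and 7.35% and chromosome 15 over 9.32%, 9.12% and 6.27%. Each cluster was thus covered above its own chromosome in each list. Line A and NPC broke the type II cluster into 102 and 77 peaks with median widths of 1856 and 1869 bp, while line B had 37 peaks with a median of 2916 bp. The longest of these line B peaks ran over 92.3 kb (101809382 to 101901678) and took in the whole records of Krt2, Krt1, Krt77 and Krt76, and ranked 26 in width among the 81972 peaks of that list. The longest line A peak in either cluster spanned 43.0 kb (chromosome 11, 99334729 to 99377740) from within Krt26 across Krt27 and Krt28, and the longest NPC peak 18.2 kb (99365650 to 99383873) over most of Krt28.

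**Figure D3:**
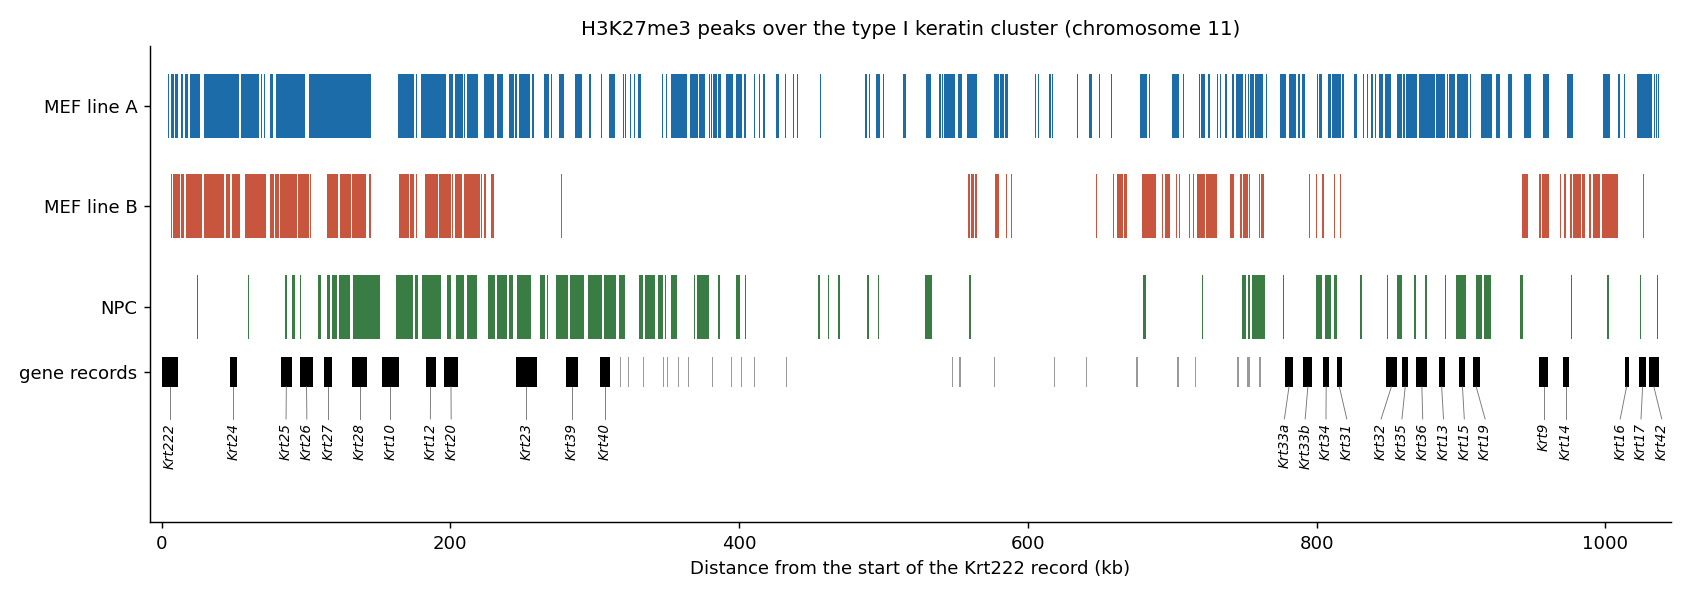
H3K27me3 peaks of MEF line A, MEF line B and NPC (coloured blocks, 1 row per list) along the type I keratin cluster, with distance from the start of the Krt222 record in kb on the horizontal axis. The bottom row shows the records of the 27 keratin genes in black with their names and of Krtap genes in grey. Line B has stretches of 281.4 and 125.6 kb with no peak, in which line A and NPC have peaks.

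**Figure D4:**
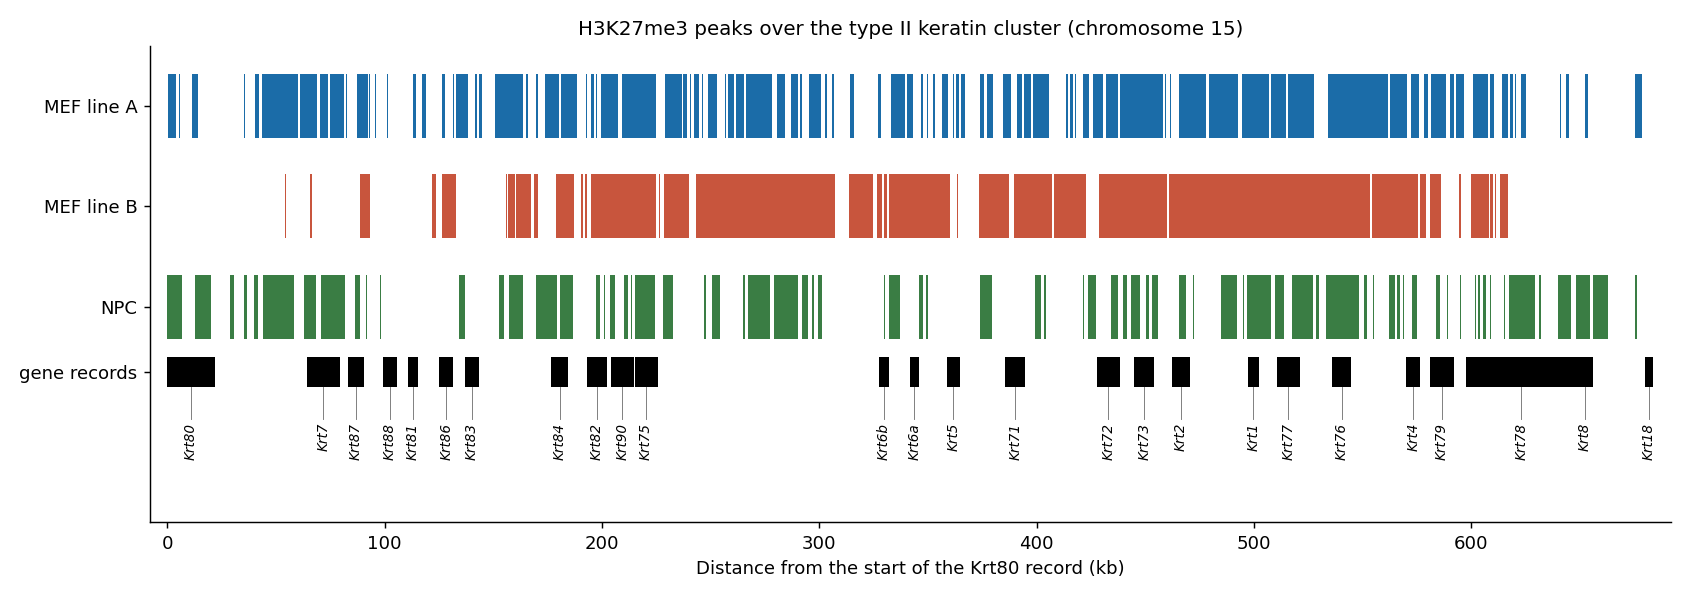
H3K27me3 peaks of the 3 lists (coloured blocks, 1 row per list) along the type II keratin cluster, with distance from the start of the Krt80 record in kb on the horizontal axis and the 26 keratin gene records in black. Line B peaks run almost without a break from Krt72 to Krt4. None lies within 2 kb of Krt80, Krt88, Krt81, Krt83, Krt8 and Krt18.

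Runs of neighbouring genes differed between the lists, and the limits of the runs were chosen after the values were seen. From Krt23 to Krt40, with 2 kb at the ends, NPC peaks covered 70.3%, line A peaks 41.3% and line B peaks 1.31% of 69.25 kb. From Krt32 to Krt19 line A covered 68.4%, NPC 26.3% and line B 0% of 69.08 kb. The second run lies within a stretch of the line B list without a peak (100049520 to 100175099), and Krt39 and Krt40 of the first run lie in another (99510244 to 99791617) that also holds Krtap genes. From Krt72 to Krt4, line B covered 96.1%, line A 83.6% and NPC 50.1% of 152.6 kb. That run holds some, not all, of the epidermal, oral and inner root sheath keratins of the type II cluster. At the first end of the type II cluster, from Krt80 to Krt83, line B covered 9.27% against 43.5% in line A and 38.7% in NPC, and at the other end, from Krt79 to Krt18, the values were 18.3%, 33.9% and 37.8%. The first run of the type I cluster, from Krt222 to Krt20, was covered in both MEF lists (73.7% in line A and 65.7% in line B, with 34.9% in NPC). Line B cover was above line A cover in the runs from Krt6b to Krt71 (73.9% against 44.7%, NPC 20.6%), from Krt84 to Krt75 (77.7% against 73.5%, NPC 51.0%) and from Krt9 to Krt42 (41.2% against 32.1%, NPC 3.63%). In this last run the order differed by gene. Line B was above line A in the windows of Krt9 (6.29 against 3.94 kb) and Krt14 (3.52 against 2.93 kb). At Krt16, Krt17 and Krt42 it was below (0, 0.624 and 0.395 kb against 0.401, 7.96 and 7.91 kb). The longest line B peak of that run, of 11.48 kb (100230255 to 100241738), touched no member window. From Krt33a to Krt31 line B cover was below line A cover, with 9.38% against 54.3%, and NPC peaks covered 11.25 of 43.35 kb.

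Shared sequence was larger in the type II cluster. There, 73.6% of the line A peak length and 70.5% of the line B peak length was common to both MEF lists, and in the type I cluster 37.7% and 67.8%. Over all autosomes the MEF lists shared 46.3% of the line A length and 54.2% of the line B length. Of the NPC peak length, line A peaks held 76.3% in the type II cluster and 67.4% in the type I cluster, against 40.6% over the autosomes. Line B peaks held 61.6% and 30.4% of it, against 32.3%. These shares are to be read beside the cover of the clusters, since denser peaks overlap more wherever they lie. Line A peaks covered 55.8% of the type II and 44.3% of the type I cluster, and line B peaks 58.2% and 24.7%. Whether the lists overlapped more than such cover alone would give was not tested. Sequence under a peak in all 3 lists made up 21.7% of the type II cluster and 7.03% of the type I cluster.

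Most genes next to the clusters had no peak in any list, as was so at 53.9% of all genes, while the flanking sequence held peaks in places. On chromosome 11, Smarce1 (a chromatin remodelling subunit) and Eif1 (a translation initiation factor), the nearest genes on either side, had 0 bp of peak within 2 kb in each list. On chromosome 15, Atg101 and Smim41 before the cluster and Eif4b and Tns2 after it were at 0 bp in each list as well. The second neighbours on chromosome 11, the chemokine receptor gene Ccr7 and the gastrin gene Gast, had peaks in the MEF lists (6.52 and 3.99 kb at Ccr7, 5.10 and 0.655 kb at Gast, in line A and line B) and 0 kb in NPC. The 50 kb before the type II cluster was covered over 2.58% in line A, 2.60% in line B, with 27.6% in NPC. The 50 kb after it was covered over 21.0%, 0% and 32.5%, in the same order. Before the type I cluster the values were 35.9%, 19.3% and 0%, and after it 48.8%, 1.40% and 2.98%. In line A, cover after the type I cluster was thus not below that of the cluster itself (44.3%).

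Among the keratins of simple epithelia, NPC peaks covered more than line B peaks at 4 of 5 members. Krt8 (NCBI gene 16691, chromosome 15, 101996711 to 102004342) had 1.39 kb of its 11.6 kb window covered in line A, 0 kb in line B, with 8.03 kb in NPC. In line A this was 1 peak inside the record (102000872 to 102002257), in NPC a peak over most of the record (101996738 to 102002931) and another that began upstream of the start (102004504 to 102011148), and the nearest line B peak lay 29511 bp outside the window. Krt18 (gene 16668, chromosome 15, 102028216 to 102032026) had 0 bp covered within its record in each list, and 1.36 kb in line A, 0 kb in line B, with 0.850 kb in NPC in the flanks. The Krt8 and Krt18 pair thus carried little or no peak in the MEF lists, with Krt8 covered in NPC over 69.1% of its window.

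Krt19, a keratin of ducts and other simple epithelia, had 1.55 kb of peak in line A, all of it outside the record, 0 kb in line B, with 4.27 kb in NPC out of 9.12 kb. Krt7 of glandular epithelia (chromosome 15, 101412403 to 101427806) was covered over 17.0 kb in line A, 0.791 kb in line B, with 16.7 kb in NPC out of 19.4 kb. Krt20, of gut epithelium, was the member of this group with a long line B cover, 11.7 kb out of 13.8 kb, with 10.0 kb in line A and 6.46 kb in NPC. The group had medians of 17.4%, 0% and 46.9% of the window in line A, line B and NPC, and is the role group with the lowest median in line A and the highest in NPC.

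The basal layer keratins had peaks in both MEF lists except Krt15. The partners Krt5 and Krt14 had peaks in both MEF lists, 5.67 and 3.63 kb at Krt5 (line A and line B, window 9.84 kb) and 2.93 and 3.52 kb at Krt14 (window 8.35 kb). In NPC they had 0 kb and 0.469 kb, and the nearest NPC peak lay 277 bp outside the Krt5 window. The promoter entries of both met no peak in any list, but that of Krt14 lies 1480 bases inside its record, whose upstream end (100207510) was under a line A peak (100206580 to 100210148). Krt15, also known from the stem cell region of the hair follicle, was covered over 7.77 kb in line A, 0 kb in line B, with 6.47 kb in NPC out of 8.19 kb.

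Keratins of the differentiating layers of epidermis, cornea and mouth were among the most covered, with medians of 71.9% in line A, 85.8% in line B, with 38.4% in NPC over 10 members. Krt76 of the palate (chromosome 15, 101884351 to 101892920) was under peaks along its whole 12.6 kb window in line B and NPC and over 12.5 kb in line A. Krt12 of the cornea (chromosome 11, 99415664 to 99422593) was under peaks along its whole 10.9 kb window in line A and NPC and over 8.79 kb in line B. Both MEF lists covered Krt1 along its full 9.36 kb window, and NPC peaks covered 8.12 kb of it. Krt77, a relative of Krt1, was covered over 13.9, 15.0 and 10.2 kb out of 15.0 kb.

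The type I partner of Krt1 differed from it. Krt10 (chromosome 11, 99385254 to 99397449) had 2.82 kb of peak in line A, 2.14 kb in line B, with 4.81 kb in NPC out of 16.2 kb, and its record reaches upstream of the start in the promoter table. Krt2 of the upper epidermis had 7.95, 11.6 and 3.82 kb out of 12.3 kb in line A, line B and NPC. The mucosal partners Krt4 and Krt13 were covered in line A over 5.50 of 10.2 kb and 6.51 of 8.24 kb, in line B over 9.31 and 0 kb, and in NPC over 2.57 and 1.22 kb. Krt9, of palms and soles, had 3.94, 6.29 and 0 kb out of 10.5 kb. Krt78 had the most covered bases in line A (18.1 kb) and NPC (24.9 kb), with 13.65 kb in line B. Its record of 50624 bp ends 86 bp before Krt8, and these values came to 33.1%, 25.0% and 45.6% of the window.

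Keratins induced in wounds or tied to skin appendages varied from gene to gene. Krt6a, a keratin of injured epidermis, was under peaks along its whole 8.38 kb window in line B, with 3.46 kb in line A and 1.45 kb in NPC, and its neighbour Krt6b over 5.39 kb in line B, 2.02 kb in line A and 2.80 kb in NPC out of 8.27 kb. Their type I counterparts had more cover in line A than in line B: Krt17 had 7.96 kb in line A, 0.624 kb in line B, with 0.552 kb in NPC out of 8.82 kb, and at Krt16 peaks covered 0.401 kb in line A and no base in line B or NPC. Krt75 of the hair follicle companion layer had 12.2, 12.6 and 9.83 kb out of 14.6 kb in line A, line B and NPC. Krt6a and Krt6b, like other pairs of close paralogs here, share long stretches of sequence, and how reads that match several places were treated is not stated in the labels.

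The inner root sheath keratins, which form the layer that guides the growing hair, were covered over at least 61.3% of the window at all 7 members in both MEF lists. The medians were 100% in line A, 80.8% in line B, with 33.1% in NPC. Krt73 was under peaks along its whole 13.1 kb window in both MEF lists and over 8.18 kb in NPC. Krt28 (chromosome 11, 99365007 to 99374903) was under peaks along its whole 13.9 kb window in line A, over 11.3 kb in line B, with 11.8 kb in NPC. Krt71 and Krt26 were covered in NPC over 0.327 and 0.616 kb and in the MEF lists, line A first, over 8.27 and 10.6 kb at Krt71 and 10.8 and 8.37 kb at Krt26. These 7 genes lie in both clusters, 4 side by side in the type I and 3 in the type II cluster.

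The 16 keratins of the hair and nail shaft were the group in which the MEF lists differed most in median, 52.1% in line A against 1.78% in line B, with 19.9% in NPC. A line B peak stood at 8 of the 16, a line A peak at 16 and an NPC peak at 13. Over all 53 members these counts were 36, 53 and 45, and the shares of all genes were 33.6%, 32.9% and 26.6%. The line A count thus restates that of all members. Krt31, a hair cortex keratin, had 6.12 kb in line A, 1.66 kb in line B, with 2.22 kb in NPC out of 7.91 kb. Krt36 had 9.89, 0 and 2.24 kb out of 11.5 kb. Krt39 and Krt40 had their longest cover in NPC, 11.1 of 12.4 kb and 9.17 of 10.5 kb there, against 5.02 and 2.98 kb in line A and 0 kb in line B. The nearest line B peak lay 717 bp outside the Krt39 window and 24492 bp outside that of Krt40. Krt84 was covered in each list, over 10.96, 7.88 and 10.4 kb out of 11.8 kb. Krt86 was higher in line B, with 6.48 kb out of 10.5 kb, than in line A with 2.49 kb. It had 0 kb in NPC, where the nearest peak lay 573 bp outside the window. Krt85 is not among the records used here.

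The remaining members stood outside these groups. Krt90 was under peaks along its whole window of 14.6 kb in line B, with 12.65 kb in line A and 6.14 kb in NPC. Krt24 had 8.77 and 7.70 kb out of 9.30 kb in the MEF lists and 0 kb in NPC, and Krt222, the first gene of the type I cluster, 5.26, 5.38 and 0 kb out of 15.4 kb. Krt23 had 10.8 kb in line A, 0 kb in line B, with 10.3 kb in NPC out of 19.1 kb. Krt80 had 7.25, 0 and 15.3 kb out of 25.8 kb. Krt88 was at or below 0.645 kb in each list. The members with at least 50% of the window covered in each of the 3 lists were Krt28, Krt12, Krt84, Krt75, Krt73, Krt1, Krt77 and Krt76, 8 of 53 (15.1%, against 1.52% of all genes).

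Other genes of epithelial filaments and their surroundings had peaks to varying extents, to be read against the 32.9%, 33.6% and 26.6% of all genes with a peak in line A, line B and NPC. The 23 Krtap genes between Krt40 and Krt33a, which make the matrix of the hair shaft, had a peak at 23 in line A, 6 in line B, with 10 in NPC, and the 443.9 kb from the first to the last of them was covered over 28.6%, 12.6% and 13.8%. The 24 Krtap genes of chromosome 16 had a peak at 0 in either MEF list and at 3 in NPC. A count of 0 of 24 would allow up to about 12.5% for independent genes, which these neighbours are not. Cornified envelope genes, which harden the outer epidermis, had a peak at 5 of 12 in line A, 10 in line B, with 7 in NPC (41.7%, 83.3% and 58.3%). The trichohyalin gene Tchh, of the inner root sheath, was covered over 10.75, 7.54 and 10.75 kb of its 10.75 kb window, while involucrin (Ivl) was at 0 kb in each list.

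Desmosome and cytolinker genes, whose products anchor keratin filaments, had a peak at 4 of 19 in line A, 7 in line B, with 4 in NPC, shares of 21.1%, 36.8% and 21.1%. In line A and NPC, Pkp1, a plakophilin of desmosomes, had the most covered bases of the list (41.2, 7.60 and 51.8 kb out of 51.8 kb in line A, line B and NPC). Epithelial regulators had a peak at 18 of 21 in line A, 13 in line B, with 11 in NPC (85.7%, 61.9% and 52.4%). Hoxc13, a regulator of hair keratin genes, was under peaks along its whole 11.7 kb window in all 3 lists, while the splicing regulator Esrp1 was covered over 51.1, 46.9 and 8.13 kb out of 58.85 kb. Trp63, the master regulator of stratified epithelia, had 0 kb in each list.

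Other intermediate filament genes had a peak at 10 of 16 in line A, 9 in line B, with 8 in NPC. Vim, which fibroblasts and neural progenitors are known to express, had 0 kb in each list, and Nes had 0.212 kb in line A, 11.2 kb in line B, with 0 kb in NPC out of 13.4 kb. The neurofilament gene Nefl was covered over 7.69, 9.23 and 9.23 kb of its 9.23 kb window. As a check of the cell labels, genes that fibroblasts are known to express (6 with Vim) had a peak at 1 in line A (Col1a1, 0.893 kb) and at 0 in line B, and at 0 in NPC as well, so these genes do not tell the cell types apart. Genes that neural progenitors are known to express (6 with Vim) had one at 0 in NPC, against 4 in line A and 5 in line B. A count of 0 of 6 would allow a share of up to about 50% for independent draws, while these genes were picked by hand. Expression itself was not analysed here.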

How the data were processed

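The deposited files were 3 lists of H3K27me3 peaks, each line a chromosome, start and end without header, score or height. Builds mm10 and dm6 and the tools MACS2 2.1.1.20160309, deepTools, Picard and Bowtie2 2.2.9 are listed without roles, per the submitters' processing notes. The peak threshold, the control and the pooling of libraries are not stated there or in the labels. No list is tied to a library, so no comparison of groups, no replicate spread and no depth could be had. Starts were read as 0-based and are printed 1-based.

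Covered length was the number of bases of a window under a peak, with Python 3.11.15, numpy 2.4.6 and pandas 2.3.3, checked on simulated peaks. The window was the gene record with 2 kb on each side, and a peak was counted from 1 bp. Genes came from RefSeq, which gives records with no strand or exon in the table used, and promoters from its promoter table. The genes named were up to 6 members per list with the most covered bases, fixed landmark genes, up to 4 with a peak in 1 MEF list and not the other, and cluster neighbours. Further members and pathway genes are named to complete the groups, chosen after their values were seen. Members and lists were chosen with earlier results of these data known. Intervals are exact (Clopper-Pearson, 95%), while the limit given for a count of 0 is the approximate 3 divided by the number of genes.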

Additional observations from a re-analysis of the deposited data

How the results depend on the processing

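The counts of keratin genes with a peak were recomputed with the record alone, with 5 kb on each side, with 2 kb around each end, with at least 10% or 50% of the window covered, with peaks of at least 1 kb and with equal numbers of the widest peaks per list. Asking for at least 50% lowered them to 34 in line A, 23 in line B, with 16 in NPC, since it counts fewer genes by construction, and the other settings kept each count within 1.5 times. Cluster coverage stayed within 1.5 times in the settings run. Without the Krtap stretch the type I cluster was covered over 56.1%, 33.7% and 32.4% in line A, line B and NPC. The line B share of type II exceeded that of line A in the main setting (58.2% against 55.8%) and fell below it around the members alone (50.6% against 57.1%). It also fell below it with peaks less than 3 kb apart joined (62.8% against 72.1%). No paired analysis was possible because the peak lists hold no samples, and for the same reason no library could be left out. Peak heights and depth were not analysed here.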

Other observations

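Records with a keratin name or place that are not members also carried peaks. Krt74, listed as a transcribed pseudogene between Krt71 and Krt72, had 3.54 kb of its 13.25 kb window covered in line A, 12.3 kb in line B, with 0.356 kb in NPC. Gm5414, a protein-coding record between Krt75 and Krt6b (chromosome 15, 101624028 to 101628252), was under peaks along its whole 8.225 kb window in line B, and 6.14 kb of it was covered in line A and 6.42 kb in NPC. It lay in the second-longest line B peak of the cluster, of 64.1 kb (101591433 to 101655541), which touched no member. The pseudogene Krt8-ps on chromosome 7 had 0 kb in each list.

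The Krtap genes on other chromosomes did not share one pattern. The 5 on chromosome 7 had a peak at 5 in line A, 3 in line B, with 5 in NPC, and the 3 on chromosome 10 at 3, 3 and 1. By the same rule 32.9%, 33.6% and 26.6% of all genes had a peak. Both sets are small and hold genes that lie close together, so their counts are not independent. On chromosome 16, the 3 genes with an NPC peak were Krtap13, Krtap19-5 and Krtap21-1, with 1.03, 1.045 and 0.733 kb.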
